A study of Schizosaccharomyces pombe with 5 samples.

Results

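RNAs bound to Mei2 and Msa1 were recovered by UV crosslinking and immunoprecipitation (CLIP-Seq) from h90 fission yeast, and the 3 small nucleolar RNAs (snoRNAs) snoU14, snR30 and snu3 (U3) together with the non-coding RNA prl53 were examined here. These 4 RNAs were chosen by the peaks over them, which hold many tags in cells without a tagged protein, so the values below describe them and were not tested. All 4 lay under a peak of the Mei2 list, which holds 128 peaks, and 1 of them, snR30, also lay under a peak of the Msa1 list, which holds 140 peaks. The compared cells carried Mei2-TAP, with a C-terminal TAP tag on the RNA-binding protein that starts meiosis, Msa1-TAP, with the same tag on a second RNA-binding protein of sexual differentiation, or no tag. All cells were homothallic, were otherwise described alike, and were labelled as starved of nitrogen on ME medium for 4 h. The growth protocol also names harvests at 5 and 6 h. For the Mei2-TAP immunoprecipitation the paper describes pooled samples from 4 to 6 h, so the libraries may not hold a single time. The series has 2 Mei2-TAP, 2 Msa1-TAP and 1 untagged library, but each list rests on 1 tagged library against the untagged one, and the values therefore have no replicates. The totals recovered from the lists were 194019 tags for Mei2-TAP, 359942 tags for Msa1-TAP and 252516 tags for the untagged library. Each read of a pair counts as 0.5 tags, and the 95% intervals take in counting error alone, because reads copied by PCR need not come from separate molecules.

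snoRNAs guide chemical changes of other RNAs or help to cut and fold the precursor of ribosomal RNA, and they fall into a box C/D family, held by fibrillarin and its partners, and a box H/ACA family, held by the pseudouridine synthase Cbf5 and its partners. U3 and U14 belong to the box C/D family, and snR30, the yeast form of U17, belongs to the box H/ACA family. In budding yeast all of them are needed to make the 18S RNA of the small ribosomal subunit, rather than only to modify it. prl53 is one of the fission yeast RNAs named prl because they carry a poly(A) tail and lack a long reading frame, and no role is given for it here. Mei2 itself is best known for its partner meiRNA, a non-coding RNA made from the sme2 gene.

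The sequences of the snoRNAs are shown with the letters of the family boxes that were searched for, and with the parts that lay under the peaks. The whole snoU14 RNA (chrII:1308634-1308745, plus strand, ASM294v3, 112 nt) has in capitals the box C letters TGATGA at positions 10 to 15 and the box D letters CTGA at positions 105 to 108, counted from its 5′ end.
snoU14: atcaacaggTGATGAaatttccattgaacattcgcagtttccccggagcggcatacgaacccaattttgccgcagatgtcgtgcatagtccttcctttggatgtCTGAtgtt
Both boxes near the ends (TGATGA in the first 30 nt and CTGA in the last 30 nt) were found in 18 of 66 annotated snoRNA genes (27.3%) and in 14 of 7133 long non-coding RNA genes (0.196%), searched on the sense strand. The first 178 nt of snu3 (chrI:987648-987825, minus strand, ASM294v3) are the part under the Mei2 peak. Capitals mark the only exact TGATGA of snu3, at positions 171 to 176. The only CTGA of snu3 lay before these letters, at positions 125 to 128, the reverse of the order in snoU14, and none lay in its last 30 nt. The capitals in snu3 are therefore a match of letters, and whether they form a box C was not tested.
snu3: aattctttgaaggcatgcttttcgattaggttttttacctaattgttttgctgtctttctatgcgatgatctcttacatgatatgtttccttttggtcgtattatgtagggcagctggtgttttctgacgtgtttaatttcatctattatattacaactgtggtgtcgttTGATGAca
The first 224 nt of snR30 (chrI:3394875-3395098, plus strand, ASM294v3) are the part under the Mei2 peak, and the capitals mark the 126 nt that lay under the Msa1 peak as well.
snR30: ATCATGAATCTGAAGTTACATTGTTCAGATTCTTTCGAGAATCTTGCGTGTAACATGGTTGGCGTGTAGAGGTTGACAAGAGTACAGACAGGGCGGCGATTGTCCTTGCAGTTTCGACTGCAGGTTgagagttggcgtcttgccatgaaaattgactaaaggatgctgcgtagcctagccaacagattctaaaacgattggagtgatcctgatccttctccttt
The last 30 nt of snR30 (chrI:3395171-3395200) lay under neither peak and hold the ACA box 3 nt from the 3′ end, in capitals.
snR30 3′ end: cagttgggtaaaaccatacagttgACAttt
An ACA at that place was found in 11 of 66 snoRNA genes (16.7%) and in 123 of 7133 long non-coding RNA genes (1.72%), and not in snoU14, snu3 or prl53. The looser box H letters ANANNA occurred 7 times in snR30, but 59 of 66 snoRNA genes (89.4%) and 7124 of 7133 long non-coding RNA genes (99.9%) held them at least once. The stretch of prl53 under its Mei2 peak (chrI:4008719-4008919, minus strand, ASM294v3, positions 987 to 1187 of 1852 nt) is printed because it drew the most tags of the untagged library in the Mei2 list, and its capitals mark the only TGATGA of this RNA, at positions 989 to 994. At least 1 TGATGA was found in 30 of 66 snoRNA genes (45.5%) and in 1878 of 7133 long non-coding RNA genes (26.3%).
prl53: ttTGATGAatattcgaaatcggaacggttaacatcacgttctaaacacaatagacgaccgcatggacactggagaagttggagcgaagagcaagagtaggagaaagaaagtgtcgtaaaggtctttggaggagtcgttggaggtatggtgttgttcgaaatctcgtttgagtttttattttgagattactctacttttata

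U14 of budding yeast pairs with the 18S rRNA, and the fission yeast sequences were searched for the longest stretch without mismatch between each snoRNA and the 1842-nt 18S rRNA. In snoU14 it was 13 nt long, from position 29 to 41, and faced positions 84 to 96 of the 18S rRNA (chrIII:2441077-2441089, plus strand), both shown in capitals.
snoU14 stretch: CATTCGCAGTTTC
18S rRNA stretch: GAAACTGCGAATG
A stretch of at least this length was found in 6 of 66 snoRNA genes, whose median was 9 nt. The longest stretches of snu3 and snR30 were 11 and 10 nt, lengths reached or passed by 19 and 32 of the 66. By base composition, G and C made up 46.4% of snoU14, 43.6% of snR30, 33.2% of snu3 and 36.4% of prl53, beside medians of 36.0% over the snoRNA genes and 36.5% over the long non-coding RNA genes. The letters TTAAAC, also counted with C or G as the second base, are bound by the meiotic RNA remover Mmi1 and occurred on the sense strand once in snu3 (positions 237 to 242) and once in prl53 (positions 1820 to 1825), both outside the peaks, and were not in snoU14 or snR30. They occurred in 16 of 66 snoRNA genes (24.2%) and in 4205 of 7133 long non-coding RNA genes (59.0%). On the opposite strand these letters occurred 2 times in snu3, all of them inside the peak. They also occurred 2 times in prl53, where not all of them lay outside the peak. The snu3 values in this paragraph hold for its ASM294v3 model, which differs from the one for the build of the lists.

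In the Mei2 list, the 4 RNAs had many tags in both libraries and ratios in the lower part of the list. The peak over prl53 (chrI:4008719-4008919, 200 nt) held 1426.5 tags in Mei2-TAP cells and 463.5 tags in untagged cells. After scaling to the library totals this was a ratio of 4.01 (95% interval 3.60 to 4.46), the lowest of the 128 Mei2 peaks. The peak over snoU14 (chrII:1308505-1308755, 250 nt) held 899.5 tags in Mei2-TAP cells and 273 tags in untagged cells, a ratio of 4.29 (3.74 to 4.93). Only the meiRNA peak, with 5277.5 tags, held more Mei2-TAP tags than these, and prl53 and snoU14 were 2 and 3 of 128 by that count. The peak over snu3 (chrI:987648-987958, 310 nt) held 181 tags in Mei2-TAP cells and 48 tags in untagged cells, a ratio of 4.91 (3.55 to 6.90). The peak over snR30 (chrI:3394826-3395098, 272 nt) held 118 tags in Mei2-TAP cells and 33 tags in untagged cells, a ratio of 4.65 (3.14 to 7.07). By Mei2-TAP tags, snu3 and snR30 were 6 and 9 of 128 in the list. The paper listed snoU14 as a Mei2 target only by native RNA immunoprecipitation read on arrays. Its CLIP-Seq targets were limited to the most significant peaks against both untagged and Msa1-TAP cells.

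Across the 4 RNAs, Mei2-TAP tags differed 12.1-fold and untagged tags 14.0-fold between the highest and the lowest, and the ratios differed 1.23-fold. The list holds no ratio below 4, and the RNAs were chosen on high untagged tags. The closeness of their ratios was therefore not read as a shared trait. In Mei2-TAP cells the order was prl53 with 7352 tags per 1000000 tags of the library, snoU14 with 4636, snu3 with 933 and snR30 with 608, and no 2 of the 4 counting intervals overlapped. In untagged cells the order was the same, with 1836, 1081, 190 and 131 per 1000000, and there the intervals of snu3 (140 to 252) and snR30 (90.0 to 184) overlapped. The 4 intervals of the ratio all overlapped, so the order of the ratios was not resolved at this depth.

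**Figure D1:**
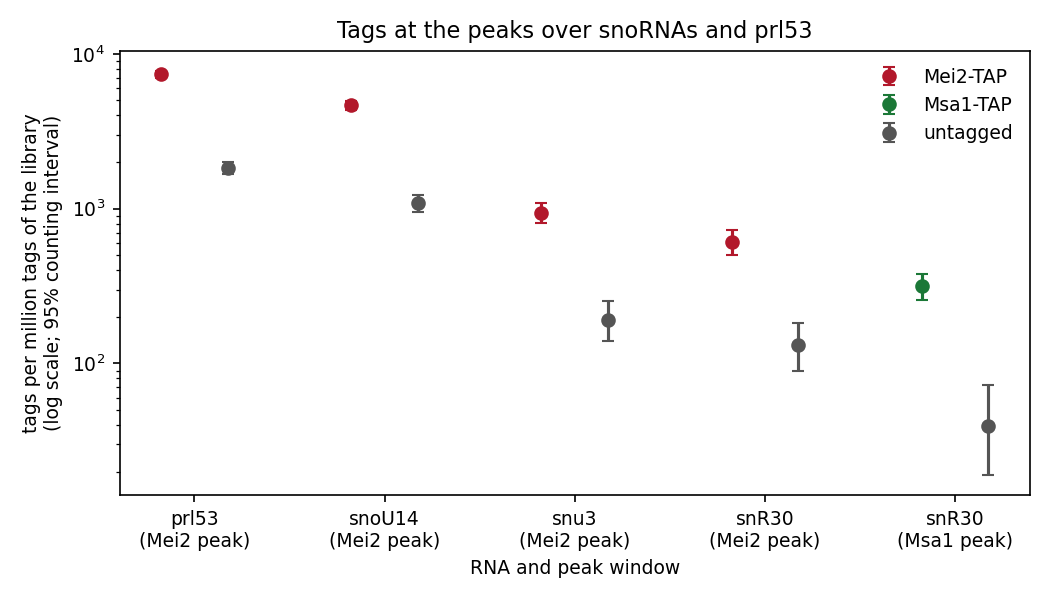
Tags per 1000000 tags of the library (log scale) at each peak, with Mei2-TAP or Msa1-TAP to the left and untagged to the right of each pair and 1 library per point. Bars are 95% counting intervals. The points of both libraries fall together from prl53 to snR30, at 7352 and 1836 tags per 1000000 for prl53 and 608 and 131 for snR30 under the Mei2 peaks.

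The lists were made with a fold threshold of 4, and prl53 with 4.01 was the member just inside it. The next peaks above it in the list had a ratio of 4.05, with 14 tags in Mei2-TAP cells and 4.5 tags in untagged cells each. All 4 RNAs had ratios below the list's median of 5.86. That median includes 59 peaks with fewer than 3 untagged tags, where the lowest ratio was 5.21. Medians were 4.77, 5.05 and 4.78 for peaks with 3 to below 10, 10 to below 30 and at least 30 untagged tags. The 8 peaks of the last group include the 4 RNAs, so its median is in part their own. The other 4 peaks of that group had ratios of 86.4, 7.81, 7.33 and 4.32. The groups with 3 to below 10 and 10 to below 30 untagged tags hold none of the 4 RNAs, and their medians also lay below that of the list. In this sense low ratios were not particular to these RNAs. The whole interval of the ratio lay above 3 for 4 of the 4, beside 20 of 128 Mei2 peaks (15.6%), and above 2 for 4 of the 4, beside 47 of 128 (36.7%). These shares follow from the tags by which the RNAs were chosen, since narrow intervals need many tags, and nothing is read from them. None of the 4 intervals lay wholly above 4, beside 8 of 128 peaks in the list (6.25%).

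The 4 RNAs were selected on high untagged tags, and their ranks describe that choice. By untagged tags prl53, snoU14, snu3 and snR30 were 1, 2, 5 and 8 of the 128 Mei2 peaks, whose median was 3 tags. snu3 had the same 48 untagged tags as tif51, and snR30 had fewer than SPNCRNA.2052 with 38. Together their peaks held 817.5 of the 1546.5 untagged tags under all Mei2 peaks (52.9%), and 2625 of the 11097 Mei2-TAP tags (23.7%). prl53 and snoU14 alone held 47.6% of the untagged and 21.0% of the Mei2-TAP tags under Mei2 peaks. Out of all tags of each library, the prl53 peak took 0.735% in Mei2-TAP cells (Wilson 95% interval 0.698 to 0.774%) and 0.184% in untagged cells (0.168 to 0.201%). The snoU14 peak took 0.464% in Mei2-TAP cells (0.434 to 0.495%) and 0.108% in untagged cells (0.0960 to 0.122%). Per nt of peak, untagged tags were 2.32 at prl53, 1.09 at snoU14, 0.155 at snu3 and 0.121 at snR30. Subtracting the scaled untagged tags left 1070 Mei2-TAP tags at prl53, 690 at snoU14, 144 at snu3 and 92.6 at snR30. The lists hold no input RNA, so untagged tags show recovery without a tag and not the amount of each RNA in the cell, and the abundance of the 4 RNAs could not be checked.

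Higher ratios did occur at Mei2 peaks with many untagged tags, and the 4 RNAs shared their range of untagged tags with 4 other peaks of at least 30. The peak with meiRNA, which spans sme2 and has its longest overlap with aga1, held 5277.5 Mei2-TAP and 79.5 untagged tags, a ratio of 86.4 (69.2 to 109). SPACUNK4.17 held 321 and 53.5 tags, a ratio of 7.81 (5.83 to 10.6), and tif51, which encodes the translation factor eIF5A, held 270.5 and 48 tags, a ratio of 7.33 (5.38 to 10.2). The non-coding SPNCRNA.2052 held 126 and 38 tags, with a ratio of 4.32 (2.98 to 6.38). The intervals of SPACUNK4.17 and tif51 lay above those of prl53 and snoU14 and overlapped those of snu3 and snR30. Their peaks were longer, at 1654 and 976 nt, and held 0.0323 and 0.0492 untagged tags per nt. Per nt, prl53, snoU14, snu3 and snR30 were 1, 2, 3 and 5 of 128 by untagged tags.

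**Figure D2:**
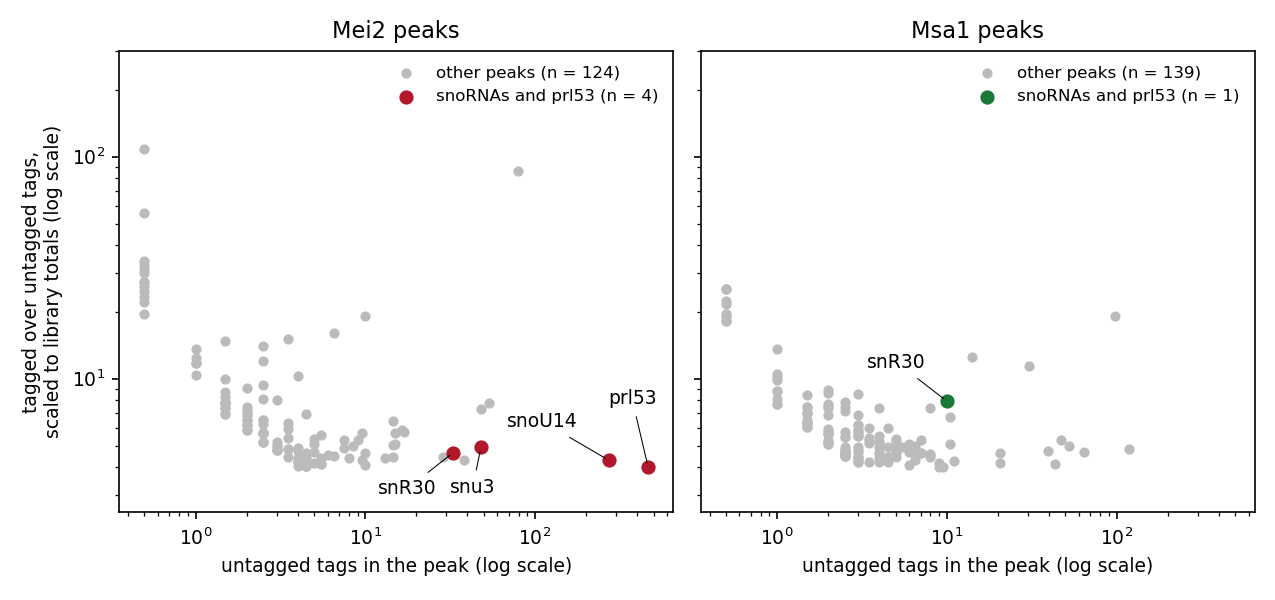
Ratio of tagged to untagged tags against the untagged tags of each peak, both on log scales, for the Mei2 list on the left and the Msa1 list on the right, with 1 point per peak. The coloured Mei2 points sit at the right edge and near the floor of the list, with ratios of 4.01 to 4.91 and 33 to 463.5 untagged tags, while snR30 in the Msa1 list has 10 untagged tags and a ratio of 7.93.

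The deposited clonal fold, in which a higher value marks tags on fewer different positions than their number would give, split the 4 RNAs. It was 1.64 at snu3, 1.27 at snoU14 and 1.21 at snR30, against a median of 0.99 over the Mei2 list, and 2, 6 and 11 of the 128 peaks had a higher value. At prl53 it was 0.88, and 124 of 128 peaks had a higher value. The 3 snoRNA peaks therefore lay near the top of the list by this value and prl53 near the bottom. In the Msa1 list snR30 had 1.48, with a higher value at 9 of 140 peaks and a median of 1.10. Amplification was for 12 cycles with no molecular identifiers described, and the part of duplicate reads in these values was not tested.

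In the Msa1 list, snR30 was the only one of the 4 RNAs under a peak. That 1 of the 4 Mei2 peaks overlapped an Msa1 peak stood beside 18 of all 128 Mei2 peaks (14.1%), and both lists share the untagged library. The Msa1 peak over snR30 (chrI:3394800-3395000, 200 nt) held 113 tags in Msa1-TAP cells and 10 tags in untagged cells, a ratio of 7.93 (4.16 to 17.0). It was 25 of the 140 Msa1 peaks by ratio and 15 by untagged tags. At the Mei2 peak the values were 118 and 33 tags with a ratio of 4.65, so the tagged tags were alike in number and the untagged tags were not. As a share of its library, snR30 took 0.0608% of Mei2-TAP tags (Wilson 95% interval 0.0508 to 0.0728%) and 0.0314% of Msa1-TAP tags (0.0261 to 0.0377%), each in its own window. The Mei2-TAP share was 1.94 times the Msa1-TAP share (1.48 to 2.53), and 1.42 times per nt of window (1.09 to 1.86).

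The Mei2 and Msa1 windows over snR30 were not the same. Both peaks shared 174 nt, which is 64.0% of the Mei2 window and 87.0% of the Msa1 window, and the Mei2 window ran 98 nt further along snR30. If the untagged reads were placed alike for both lists, at least 23 of the 33 untagged tags of the Mei2 window (69.7%) lay in those 98 nt, or at least 0.235 tags per nt, against 0.0500 per nt in the Msa1 window. The tagged tags inside the shared 174 nt are not given by the lists, so the ratios of Mei2-TAP and Msa1-TAP at snR30 were not compared over the same bases.

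snoU14, snu3 and prl53 had no Msa1 peak, and the lists give Msa1-TAP tags only inside Msa1 peaks, so their Msa1-TAP level was not measured here. Over the untagged tags of the Mei2 windows, a 4-fold excess would have needed 2643 Msa1-TAP tags at prl53 (0.734% of the library), 1557 at snoU14 (0.432%), 274 at snu3 (0.0760%) and 188 at snR30 (0.0523%). Each of these shares is below the share of Mei2-TAP tags in the same window, as follows from Mei2 ratios above 4, so Msa1-TAP tags at the Mei2-TAP share would have reached 4-fold there. At snR30 an Msa1 peak was called with 113 tags in another window, so the tags needed over a Mei2 window do not decide whether a peak is listed. The difference between Msa1-TAP and Mei2-TAP at snoU14, snu3 and prl53 was not tested here, and the paper's own peak calling of Mei2-TAP against Msa1-TAP was not used.

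The 3 snoRNA peaks began before the annotated 5′ end of the RNA, and the prl53 peak lay inside it. The snoU14 peak covered all 112 nt, reached 129 nt upstream and 10 nt downstream. The gene before it on the same strand, mamRNA, a long non-coding RNA known as a scaffold for Mmi1 and Mei2, ends 146 nt before the peak. The snu3 peak covered the first 178 of 256 nt and reached 133 nt upstream, and it left out the last 78 nt, positions that hold for the ASM294v3 model of snu3, which differs from the one for the build of the lists. It also overlapped 266 nt of SPNCRNA.2435, a long non-coding RNA on the opposite strand, and since the lists give all peaks the same strand, the reads of the pair cannot be told apart. The Mei2 peak over snR30 covered the first 224 of 326 nt and reached 49 nt upstream, and the Msa1 peak covered the first 126 nt and reached 75 nt upstream. The prl53 peak covered 201 of 1852 nt (10.9%), with no other annotated gene under it. What the reads before the 5′ ends came from was not tested.

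**Figure D3:**
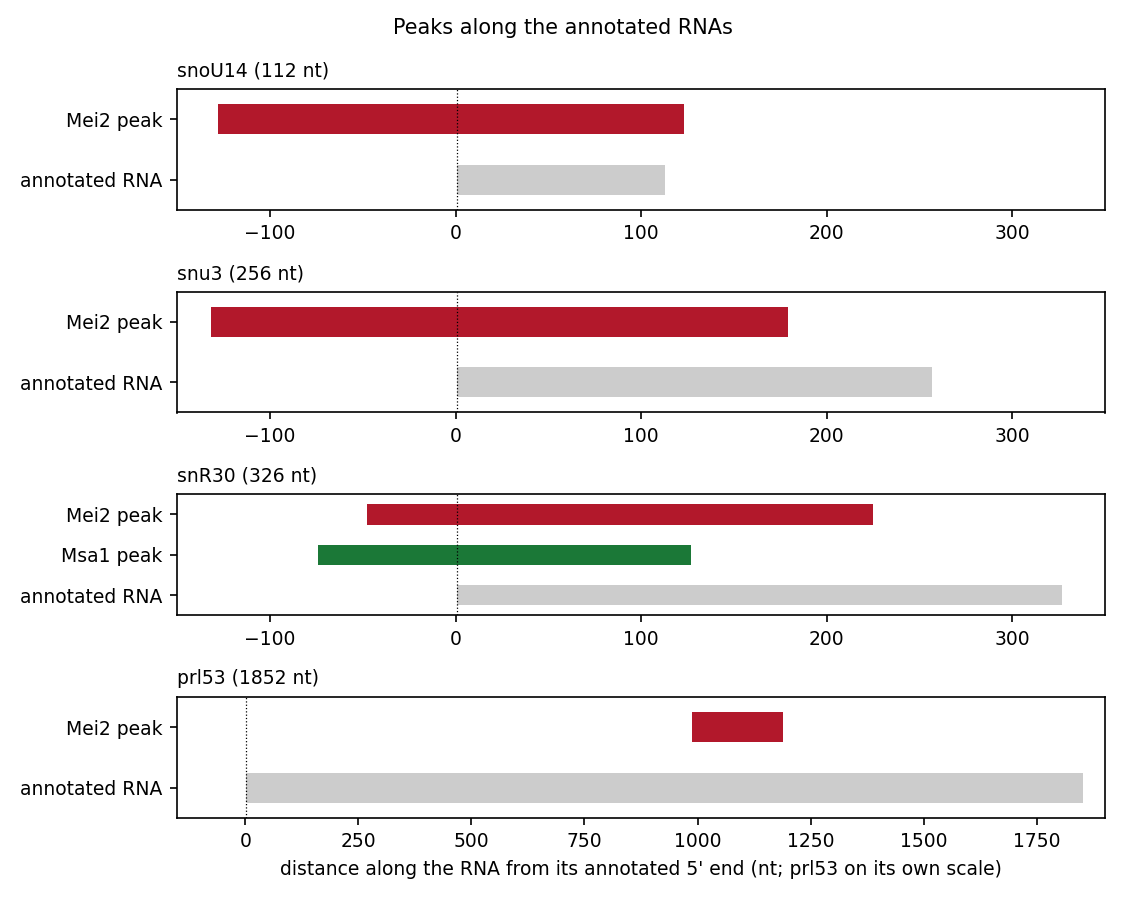
Peaks along the annotated RNAs in nt from the annotated 5′ end (dotted line), with the Mei2 peak above, the Msa1 peak below it where there is one, and the RNA in grey at the bottom. The peaks over snoU14, snu3 and snR30 start 129, 133 and 49 nt before the RNA, and that over prl53 covers positions 987 to 1187.

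Other snoRNA genes and other classes of structured RNA were counted under the peaks in the same way. Of 66 annotated snoRNA genes, 4 lay under a Mei2 peak (6.06%) and 2 under an Msa1 peak (3.03%), beside 197 of 12606 nuclear genes (1.56%) and 218 (1.73%). The counts include the 3 snoRNAs chosen by these peaks and are a description. snoZ7, a snoRNA of 100 nt inside the longer non-coding RNA snoZ, lay under a Mei2 peak (chrI:526847-527047) with 10.5 tags in Mei2-TAP cells and 2 tags in untagged cells, a ratio of 6.83 (1.47 to 63.8). snR92, a snoRNA of 144 nt, lay together with SPNCRNA.1487 under an Msa1 peak (chrII:2121162-2121362) with 19 tags in Msa1-TAP cells and 3 tags in untagged cells, a ratio of 4.44 (1.31 to 23.4). Both intervals were wide, and neither gene lay under a peak of the other list. snoZ7 and snR92 lay wholly inside their peaks, which began 90 and 53 nt upstream.

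None of the 6 genes annotated as snRNA and none of the 171 nuclear tRNA genes lay under a peak of either list. The same held for the 4 genes for the RNase P, RNase MRP, signal recognition particle and telomerase RNAs. Of 47 nuclear rRNA genes, 0 lay under a Mei2 peak and 3 under an Msa1 peak (6.38%), namely SPRRNA.46, SPRRNA.49 and SPRRNA.52. Of the 56 prl genes, prl53 was the only one under a Mei2 peak and prl25 the only one under an Msa1 peak, 1.79% in each list and near the 1.56% and 1.73% of all nuclear genes. The prl25 peak (chrII:2567598-2567964) also covered part of atp7 on the other strand, a subunit gene of the mitochondrial ATP synthase, and held 24.5 tags in Msa1-TAP cells and 2 tags in untagged cells, a ratio of 8.59 (2.14 to 74.9). The proteins of the box C/D and box H/ACA particles and of the U3 processome were examined by their genes, of which 24 of 27 were found by name. None of the 24 lay under a Mei2 or an Msa1 peak, among them fib1 (fibrillarin), nop56, nop58, cbf5 and gar1. At the shares of all nuclear genes under a peak, 1.56% and 1.73%, a count of 0 among 24 genes is close to the background, so nothing is read from this count.

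**Figure D4:**
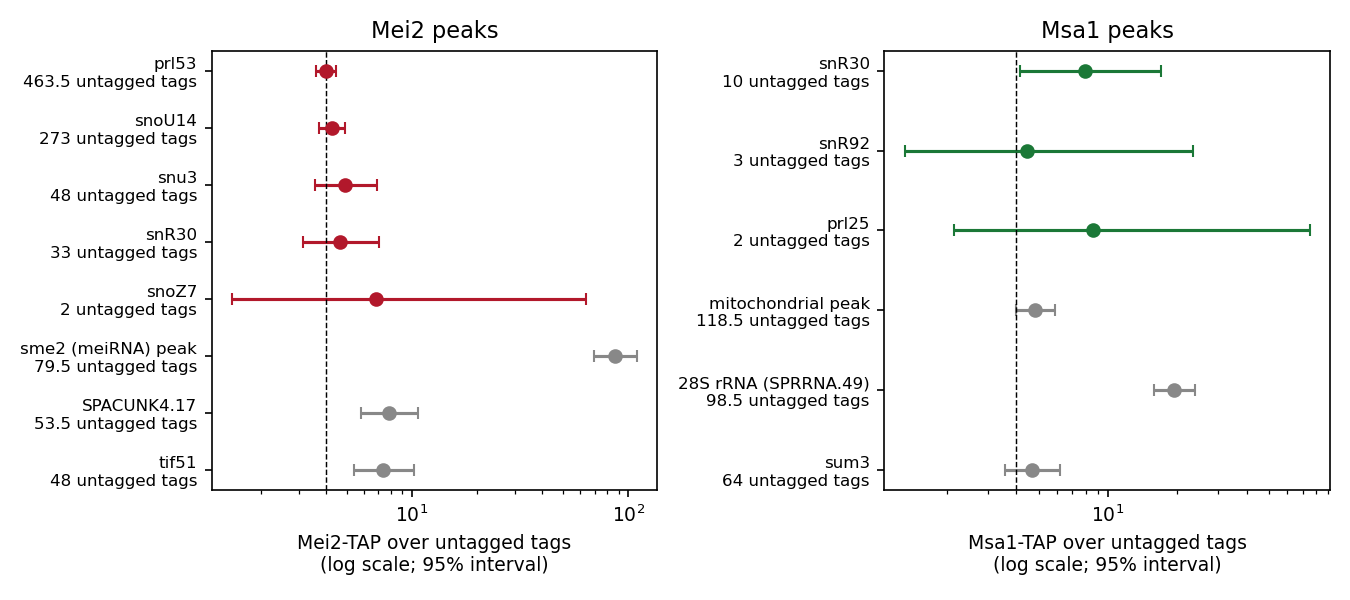
Ratio of Mei2-TAP (left) or Msa1-TAP (right) to untagged tags on a log scale, with 95% intervals, for every peak over a snoRNA or prl gene (coloured) and the 3 other peaks of each list with the most untagged tags (grey). The dashed line is the 4-fold threshold, and the intervals of prl53 (3.60 to 4.46) and snoU14 (3.74 to 4.93) span it while those of meiRNA, SPACUNK4.17 and tif51 lie above it.

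In the Msa1 list, the 3 peaks with the most untagged tags were a mitochondrial peak with 815.5 Msa1-TAP and 118.5 untagged tags, a ratio of 4.83 (3.98 to 5.90), the 28S rRNA peak of SPRRNA.49 with 2704.5 and 98.5 tags, a ratio of 19.3 (15.8 to 23.8), and sum3, a translation initiation RNA helicase gene, with 426 and 64 tags, a ratio of 4.67 (3.58 to 6.17). The snR30 interval of 4.16 to 17.0 overlapped all of them.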

How the data were processed

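The CLIP-Seq libraries of h90 cells kept the strand and had 12 PCR cycles and paired reads. The authors mapped reads with STAR to build ASM294v2 and called wide peaks with HOMER against the untagged library. The paper also called Mei2 peaks against Msa1-TAP, a comparison that the lists used here do not hold. Tool versions were not given in the sources used here. Per the file headers, the deposited tag signal is given per 10000000 tags. The deposited estimated counts are tags in steps of 0.5, given unscaled for 1 library of each pair. The deposited ratio (fold change) and p-value against the untagged library are the authors' own, and the p-value served only as a filter in a stricter setting. The deposited clonal ratio was copied.

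Library totals were recovered from scaled and unscaled tags (119 of 119 low values lay within 0.2 of a whole 0.5-tag step) and checked on simulated data. Ratios have exact Clopper-Pearson 95% intervals (SciPy 1.17.1) and no test, with 1 library per group. Members and gene lists were chosen with earlier results of these data known. Peaks overlapping a member by 1 nt were taken, and genes and sequences came from RefSeq ASM294v3, with chromosome names alike and 0 peaks past a chromosome end. The text names the 4 RNAs, snoRNA, prl and other structured RNA genes and snoRNP protein genes under a peak, genes overlapping a member's peak, and the 3 other peaks per list with the most untagged tags. mamRNA, snoZ, SPNCRNA.1487, SPNCRNA.2052, SPRRNA.46, SPRRNA.52 and atp7 fall outside that rule and were added after their values were seen. Alternatives were library totals, threshold, overlap and gene assignment.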

Additional observations from a re-analysis of the deposited data

How the results depend on the processing

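The ratios at the 4 RNAs stayed inside their intervals under both other totals. Each of these totals scales all ratios of a list by the same factor, so the check could not change their order. With tags outside the listed peaks as totals the Mei2-TAP ratios were 4.22 at prl53, 4.52 at snoU14, 4.91 at snR30 and 5.17 at snu3, and the Msa1-TAP ratio at snR30 was 8.11. Among peaks of at least 8-fold with a deposited p of at most 1e-10, which 19 Mei2 and 11 Msa1 peaks met, the number of the 4 RNAs and of annotated snoRNA genes under a peak was 0 in both lists, since all these ratios are below 8. With at least 50% of the peak inside the gene, 3 of the 4 RNAs were left under a Mei2 peak, without snoU14, and 2 of the 4 snoRNA genes. This setting cannot keep a gene shorter than 50% of its peak, even where the peak covers it whole. That was so at snoU14, whose 112 nt made up 44.6% of the peak, and at snoZ7 with 100 nt. With each peak given to the gene of longest overlap, snoRNA genes were 2 under Mei2 peaks and 1 under Msa1 peaks, since SPNCRNA.2435, snoZ and SPNCRNA.1487 then take the peaks of snu3, snoZ7 and snR92. By untagged tags per nt, snR30 and snu3 moved to ranks 5 and 3 of the Mei2 list, and 17 in place of 18 Mei2 peaks overlapped an Msa1 peak by 50% of the shorter. No paired analysis was possible because each list rests on 1 tagged and 1 untagged library, and for the same reason no library could be left out. Few untagged tags limit the ratios: 10 at snR30 in the Msa1 list give an interval of 4.16 to 17.0, 3 at snR92 give 1.31 to 23.4, and 2 each at snoZ7 and prl25 give 1.47 to 63.8 and 2.14 to 74.9.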
